A study of Rattus norvegicus with 11 samples.

Results

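The oxidative phosphorylation genes were taken by symbol from RNA-seq of Cd45- cells sorted from rat calvarial defects. They comprised every row named as a subunit of respiratory chain complex I (Nduf genes without the Ndufaf assembly factors), complex II (Sdha to Sdhd), complex III (Uqcr genes), complex IV (Cox4 to Cox8 genes) or the ATP synthase, complex V (Atp5 genes), plus the 13 protein-coding genes of the mitochondrial genome. This gave 102 of the 23781 genes in the table. Of these, 89 are encoded in the nucleus (39 in complex I, 4 in complex II, 8 in complex III, 20 in complex IV and 18 in complex V) and 13 in the mitochondrion (7 in complex I, 1 in complex III, 3 in complex IV and 2 in complex V). Ndufa4 and Ndufa4l2 were placed in complex IV, where the Ndufa4 protein is now known to reside. A filter on low counts was passed by 101 of the 102, the exception being Atp5hl1, which RefSeq lists as a pseudogene and which had 1 count in CTS replicate 1, 1 in CTS replicate 3 and 0 in the other libraries.

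Oxidative phosphorylation passes electrons from NADH and succinate along complexes I to IV to oxygen and uses the resulting proton gradient to make ATP at complex V. Complex II is built from nuclear genes alone, whereas the other complexes join nuclear subunits, imported as proteins, to a small core translated inside the mitochondrion, so the 2 genomes have to supply their parts together. Cells that meet low oxygen are known to exchange some complex IV subunits for alternative isoforms and to divert pyruvate away from the mitochondrion, and bone-forming and stromal cells are known to shift between glycolysis and respiration as they differentiate.

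The 11 libraries came from 4-month-old Sprague Dawley rats, 6 weeks after a defect across a cranial suture and the adjoining bone had been made. The defect received PLA (an electrospun polylactic acid membrane, n = 2 libraries), CTS (a freeze-dried chitosan scaffold, n = 3) or GelMA (a gelatin methacryloyl hydrogel, n = 3), or was left without a scaffold (NC, n = 3), and no other treatment separates the groups. Cells were released with collagenase, then fixed, permeabilized and sorted as Cd45-, in all 4 groups alike. The labels do not say whether libraries of a group came from separate rats, so p-values measure the spread between these libraries, and in RNA pooled from mixed cells, fewer cells of a type and less RNA per cell cannot be told apart. Libraries held 22509898 to 31290849 counts. The TMM factor, which offsets differences in library composition, was 0.780 and 0.772 in PLA and 0.804 in NC replicate 2, against 1.05 to 1.14 in the other 8 libraries. NC replicate 2 stood apart in other respects as well, with 16.9% of its counts in Col1a1, Col1a2 and Col3a1, against 0.824% to 3.48% in the other 10 libraries. Ptprc, which encodes the sorted-out Cd45 antigen, was present at 336 to 1460 CPM in all 11 libraries, which goes against the label of a Cd45- population. Levels are CPM (counts scaled to library size and TMM factor) unless FPKM, which is also per gene length, is named. Rises and falls are those that edgeR's quasi-likelihood test of all 11 libraries together passed at 0.05, after Benjamini-Hochberg adjustment over the 18049 genes tested.

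The 89 nuclear genes together took a smaller share of the library in PLA than in either other scaffold. They held 0.266% and 0.247% of counts in PLA, 0.544%, 0.523% and 0.526% in CTS, 0.477%, 0.505% and 0.442% in GelMA, and 0.447%, 0.278% and 0.462% in NC. Both PLA libraries lay below all others, and NC replicate 2 lay next to them rather than beside the other NC libraries. The mean share in PLA was 0.256 ± 0.0135% (SD, n = 2), which is 0.482 times that of CTS (0.531 ± 0.0113%), 0.540 times that of GelMA (0.475 ± 0.0314%) and 0.648 times that of NC (0.395 ± 0.102%, SD, n = 3 each). An exact permutation test over all 92400 assignments of the 11 libraries gave p = 0.0187 for a difference among the 4 groups, and 0.0561 after adjustment over the 3 measures tested this way.

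The 13 mitochondrial genes were far more abundant, with CTS again highest on average and PLA lowest, but with NC above GelMA. They held 3.16% and 3.49% of counts in PLA, 6.52%, 5.62% and 5.96% in CTS, 5.26%, 5.31% and 4.53% in GelMA, and 7.81%, 3.57% and 5.18% in NC. Here too both PLA libraries were the lowest, but NC alone spanned nearly the whole range. The exact permutation test did not separate the groups (p = 0.183, adjusted p = 0.183). The log2 ratio of mitochondrial to nuclear counts was 3.57 and 3.82 in PLA, 3.58, 3.42 and 3.50 in CTS, 3.46, 3.39 and 3.36 in GelMA, and 4.13, 3.68 and 3.49 in NC. These ranges overlapped between PLA, CTS and NC, and the exact permutation test of this ratio gave p = 0.143 (adjusted p = 0.183). Between single pairs of groups the smallest exact p that these sizes allow is 0.1, and the smallest adjusted p over the 18 pairwise tests was 0.2.

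**Figure D1:**
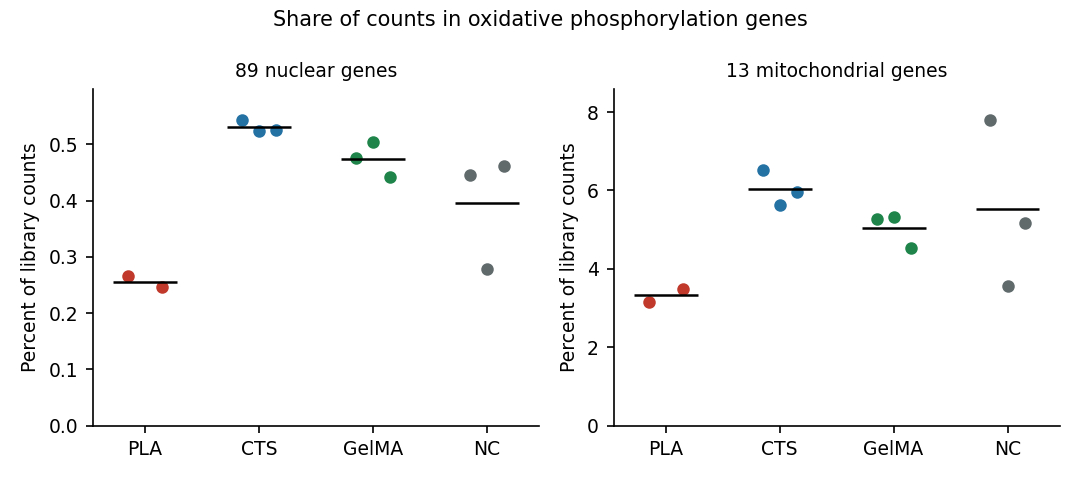
Percent of each library's counts that fell in the 89 nuclear genes (left) and the 13 mitochondrial genes (right) of oxidative phosphorylation, by group; each point is a library and each line a group mean. Both PLA libraries lie at the bottom of each panel, at 0.247% and 0.266% (nuclear) and 3.16% and 3.49% (mitochondrial), and the NC libraries spread most.

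A share of all counts also moves with what else a library holds, so the genes were compared after TMM scaling. Of the 6 comparisons, PLA against CTS had the most nuclear genes called. Of the 88 nuclear genes tested, 29 fell and 1 rose in PLA (33.0% and 1.14%, where 5.86% of all genes tested fell and 8.11% rose). The median log2 fold change of the nuclear genes was -0.56, against -0.03 over all genes tested. For 74 of the 88, both PLA libraries lay below all 3 CTS libraries, an ordering found in 27.8% of all genes tested. By complex, 12 of 39 genes of complex I, 1 of 4 of complex II, 3 of 8 of complex III, 5 of 20 of complex IV and 8 of 17 of complex V fell, with medians of -0.56, -0.35, -0.62, -0.39 and -0.63.

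Genes of other cell types moved between these groups too. The summed level of 10 neutrophil genes was 8878 to 9501 CPM in PLA, 28173 to 47986 in CTS, 4914 to 12076 in GelMA and 9416 to 69861 in NC. Of 9 tested, 4 fell in PLA against CTS (44.4%, where 5.86% of all genes tested fell) and 5 against NC (55.6%, against 5.5%). Csf3r, 1 of the 9, rose in both (11.1%, where 8.11% of all genes tested rose against CTS and 10.1% against NC). The summed level of 5 B lineage genes was 26.9 to 43.0 CPM in PLA, 66.1 to 102 in CTS, 232 to 337 in GelMA and 17.8 to 36.6 in NC. In PLA 2 of 5 fell against CTS (40%, where 5.86% of all genes tested fell) and 5 of 5 against GelMA (100%, against 3.19%). Against NC 1 of 5, Ms4a1, rose (20%, where 10.1% of all genes tested rose). The neutrophil gene Ltf was at 0 in PLA replicate 2, CTS replicate 2 and NC replicates 2 and 3, and at most 0.424 CPM elsewhere. The summed level of 10 monocyte and macrophage genes was 4706 to 5315 CPM in PLA and 10441 to 12988 in CTS. In GelMA it was 5653 to 9166 CPM and in NC 2717 to 11101. Lyz2 alone made up most of this sum in every library, at 3079 and 3711 CPM in PLA and 9389 to 12098 in CTS. In PLA against CTS 7 of the 10 had a log2 fold change above 0 and 3 below 0. In PLA 5 of these 10 rose against NC (50%, where 10.1% of all genes tested rose) and 3 against CTS (30%, against 8.11%). Against GelMA 3 fell (30%, where 3.19% of all genes tested fell). The part of these cells in the fall of the nuclear genes was not tested.

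Against GelMA and NC, fewer nuclear genes passed the test. In PLA against GelMA 6 of 88 fell and 0 rose, where 3.19% of all genes tested fell and 5.99% rose, and the median log2 fold change was -0.41 against -0.04 over all genes tested. At an unadjusted p under 0.05, edgeR put 1 nuclear gene higher and 36 lower in this comparison. DESeq2 called 1 higher, and its genes called lower are counted among the alternatives at the end. For 61 of the 88, both PLA libraries lay below all GelMA libraries, against 30.7% of all genes tested. In PLA against NC 12 of 88 fell and 3 rose, where 5.5% of all genes tested fell and 10.1% rose, and the median was -0.26 against -0.11. For 32 of the 88, both PLA libraries lay below all NC libraries, against 17.2% of all genes tested. The 3 comparisons share the PLA libraries.

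These counts changed when single libraries were left out. Without PLA replicate 1 or without PLA replicate 2, the nuclear genes called lower were 9 and 3 against CTS, and 0 against GelMA and against NC in both cases. Without NC replicate 2 they were 53 against CTS, 30 against GelMA and 27 against NC. Against GelMA they were 8 without NC replicate 1, 1 without GelMA replicate 1, 0 without GelMA replicate 2, and 2 or 3 without any of the other 5 libraries (GelMA replicate 3, NC replicate 3 or a CTS library).

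**Figure D2:**
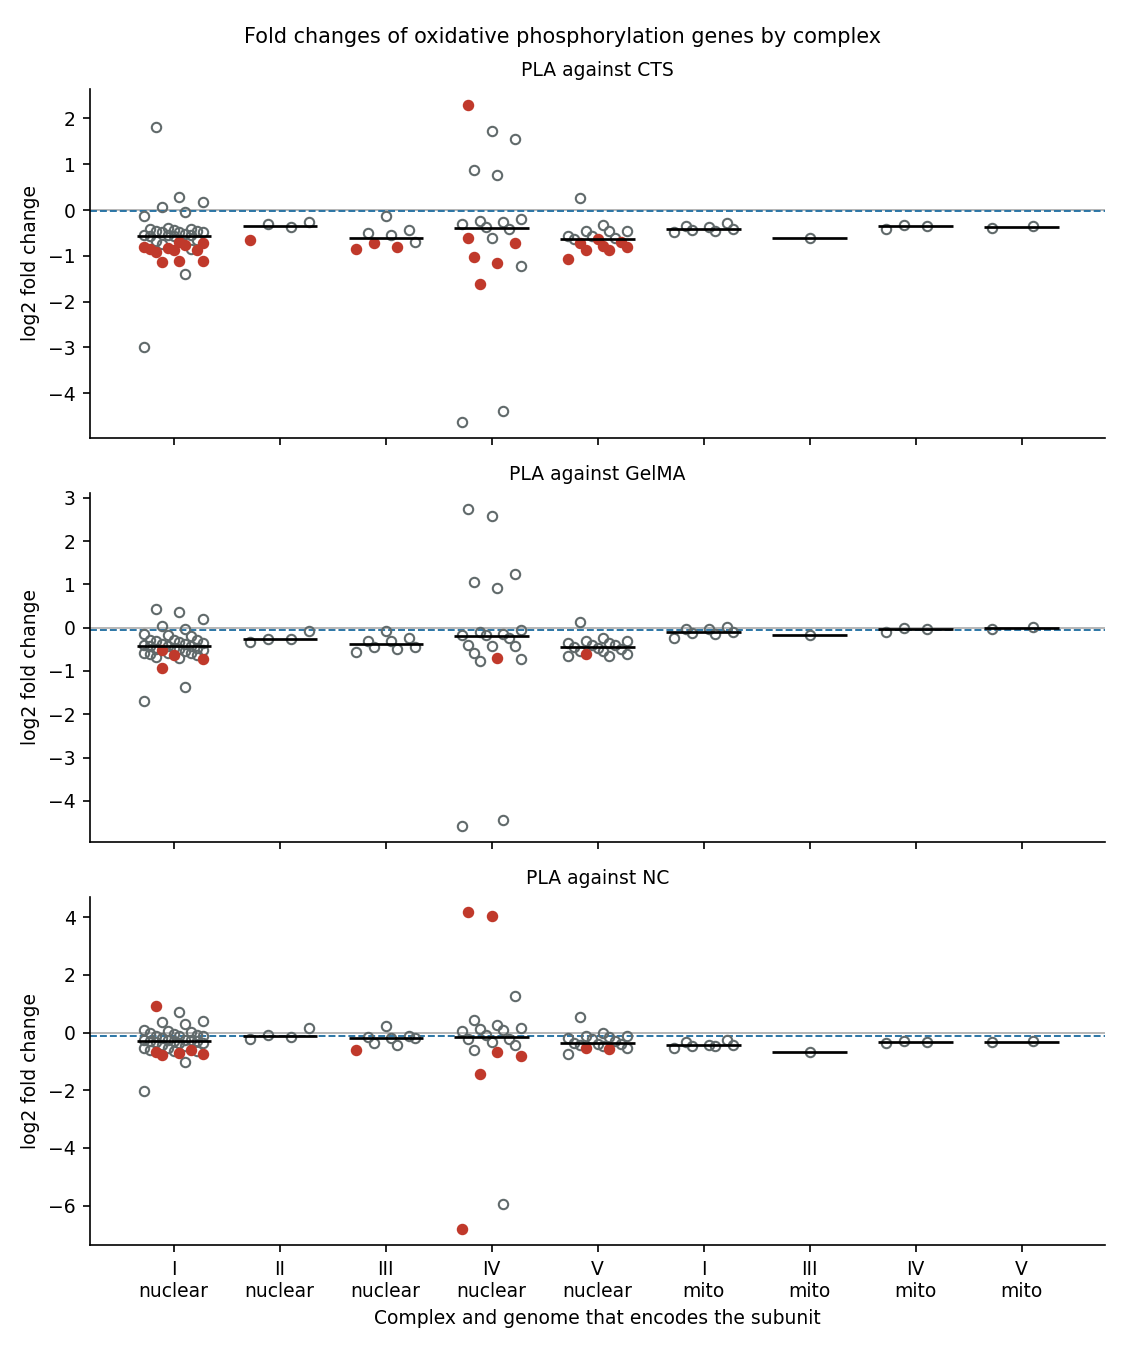
Log2 fold change of each tested gene in PLA against CTS, GelMA and NC, by complex and by the genome that encodes it (nuclear, or mito for mitochondrial); filled red points passed the test, open points did not, black lines are medians of a complex, and the dashed blue line is the median of all genes tested. The medians of all 5 nuclear complexes sit below the dashed line in all 3 panels, complex IV spreads widest (in PLA against NC, 4.16 for Cox4i2 down to -6.83 for Cox6a2, which has 0 counts in PLA, so that this fitted value is no bound), and no mitochondrial gene passed the test.

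In complex I, the entry point for electrons from NADH, 12 of 39 nuclear genes fell in PLA against CTS, among them both accessory subunits and subunits of the catalytic core. Ndufb8, a subunit of the membrane arm, stood at 20.5 and 19.0 CPM in PLA, against 46.0, 40.2 and 42.5 in CTS, 39.4, 41.7 and 31.5 in GelMA, and 29.4, 37.1 and 34.3 in NC. PLA did not overlap with any other group, and the log2 fold change was -1.12 ± 0.18 (SE, adjusted p = 0.00318) against CTS, -0.93 ± 0.18 (adjusted p = 0.0121) against GelMA and -0.77 ± 0.18 (adjusted p = 0.0169) against NC. Ndufa12, an accessory subunit of the peripheral arm, stood at 14.5 and 15.3 CPM in PLA, against 32.9, 30.9 and 32.2 in CTS, 22.7, 24.3 and 21.6 in GelMA, and 27.9, 21.2 and 26.4 in NC. Its log2 fold change was -1.10 ± 0.17 (adjusted p = 0.00288) against CTS, the call being kept without either PLA library. Ndufa12 also fell against GelMA (-0.62, adjusted p = 0.0493) and NC (-0.76, adjusted p = 0.0152). Ndufa1, a small membrane-arm subunit, had 31.5 and 32.7 CPM in PLA, against 49.0 to 58.0 in GelMA (log2 fold change -0.71, adjusted p = 0.0178). It also fell against CTS (-0.70, adjusted p = 0.0133) and NC (-0.59, adjusted p = 0.0236). Ndufb1, another membrane-arm subunit, had 10.5 and 9.20 CPM in PLA, against 22.9, 20.1 and 22.4 in CTS (log2 fold change -1.14, adjusted p = 0.0256).

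Among the core subunits that carry out electron transfer in complex I, 2 fell in PLA against CTS. Ndufs1, which holds iron-sulfur clusters near the NADH site, fell in PLA against CTS (log2 fold change -0.88 ± 0.20, adjusted p = 0.0174) and did not pass against GelMA or NC (-0.58 and -0.64, adjusted p = 0.1001 and 0.0544). Ndufv2, its partner in the NADH-oxidizing module, had 25.1 and 24.2 CPM in PLA, against 39.9, 39.6 and 42.4 in CTS (log2 fold change -0.72, adjusted p = 0.00867), and also fell against GelMA (-0.52, adjusted p = 0.0443) but not NC (-0.38, adjusted p = 0.0960). Ndufv1, which binds NADH, had log2 fold changes of -0.41 (CTS), -0.42 (GelMA) and -0.13 (NC) and passed in none of the 3 (adjusted p = 0.0912 to 0.601). Ndufs7, which carries the last iron-sulfur cluster before the quinone, went the other way. It had 15.1 and 14.6 CPM in PLA and 13.8, 16.7 and 14.9 in GelMA, against 6.92, 6.60 and 9.95 in NC. Both scaffold groups lay above all NC libraries, with a log2 fold change of 0.92 ± 0.24 (adjusted p = 0.0260) for PLA and 0.95 ± 0.22 (adjusted p = 0.0224) for GelMA, and CTS, at 14.0, 11.9 and 10.6 CPM, did not pass against NC (0.64, adjusted p = 0.281). These 2 calls were lost in 13 of 21 alternatives for PLA and in 5 of 21 for GelMA.

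Promoters of genes in this set are known to bind NRF1 and the ETS-family factor GABP, regulators that tie nuclear to mitochondrial gene expression. RefSeq promoters of 300 bases (250 before and 50 after the start, assembly GRCr8) were matched by symbol for 77 of the 89 nuclear genes. The NRF1 core TGCGCA was in 21 of the 77 (27.3%), against 7.24% of all 33469 promoters in the table, and the ETS core CCGGAA in 28 (36.4%), against 15%. The hypoxia-inducible factor core ACGTG was in 20 (26.0%), against 19.3%. Both strands were searched, none of the 3 motifs contains another, and a match is a description, not a bound site. Shown first are Ndufb8 (chr1:253362887-253363186, minus strand) and Ndufa12 (chr7:30658066-30658365, plus strand), because they are the complex I genes described above with the lowest adjusted p and hold the NRF1 core, which is in capitals.
Ndufb8: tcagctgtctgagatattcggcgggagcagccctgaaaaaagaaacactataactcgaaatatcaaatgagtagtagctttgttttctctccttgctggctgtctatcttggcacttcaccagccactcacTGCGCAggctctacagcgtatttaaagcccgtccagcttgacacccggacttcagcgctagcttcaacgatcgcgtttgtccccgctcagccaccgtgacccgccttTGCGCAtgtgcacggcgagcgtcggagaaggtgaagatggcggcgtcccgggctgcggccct
Ndufa12: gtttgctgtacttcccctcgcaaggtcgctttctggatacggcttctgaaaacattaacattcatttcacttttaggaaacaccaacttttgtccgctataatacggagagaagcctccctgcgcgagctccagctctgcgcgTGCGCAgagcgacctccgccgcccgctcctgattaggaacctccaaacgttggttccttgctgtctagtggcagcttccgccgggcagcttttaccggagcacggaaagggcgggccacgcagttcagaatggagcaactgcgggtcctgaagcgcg

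Complex II, which oxidizes succinate and also belongs to the tricarboxylic acid cycle, had 1 gene called in the PLA comparisons. Sdhd, one of its membrane anchors, fell in PLA against CTS, with 41.5 and 34.2 CPM in PLA against 64.1, 56.6 and 57.8 in CTS (log2 fold change -0.65 ± 0.17, adjusted p = 0.0279). Its groups did not overlap there, but they did against NC, at 43.3, 36.2 and 48.0 CPM. The flavoprotein gene Sdha had 65.1 and 50.7 CPM in PLA, against 69.8 to 81.1 in CTS, 67.3 to 71.6 in GelMA and 65.4 to 73.5 in NC. Sdha, the iron-sulfur subunit gene Sdhb and the second anchor gene Sdhc had log2 fold changes of -0.38 to 0.15 over the 3 PLA comparisons, and none of the 3 passed (adjusted p = 0.131 to 0.879).

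In complex III, which passes electrons from quinol to cytochrome c, the large core protein Uqcrc2 and small accessory subunits fell while the catalytic Rieske subunit did not pass. Uqcrc2 had 51.9 and 49.6 CPM in PLA, against 92.2, 83.5 and 90.2 in CTS, 73.6, 67.9 and 65.2 in GelMA, and 85.3, 67.8 and 76.6 in NC. PLA lay below every other library, with log2 fold changes of -0.80 ± 0.15 (adjusted p = 0.00630) against CTS, -0.44 (adjusted p = 0.0889) against GelMA and -0.59 ± 0.15 (adjusted p = 0.0219) against NC. Uqcr11 fell against CTS, with 19.1 and 16.0 CPM in PLA against 31.0, 29.1 and 35.2 in CTS (log2 fold change -0.86, adjusted p = 0.0285). The partner core protein Uqcrc1 and the Rieske gene Uqcrfs1 had log2 fold changes of -0.43 and -0.54 against CTS and did not pass (adjusted p = 0.133 and 0.0985).

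In complex V, 8 of 17 genes fell in PLA against CTS, and they came from the catalytic head, the stalk and the membrane ring alike. In the catalytic F1 head, Atp5f1b, the beta subunit, had 292 and 282 CPM in PLA against 489, 459 and 472 in CTS (log2 fold change -0.72 ± 0.16, adjusted p = 0.0174). Atp5f1a, the alpha subunit, had 176 and 169 CPM in PLA against 318, 319 and 276 in CTS (log2 fold change -0.82 ± 0.17, adjusted p = 0.0109). Atp5f1c, the gamma subunit that turns within the head, fell against both CTS (-0.79, adjusted p = 0.00784) and NC (-0.55, adjusted p = 0.0355). In the outer stalk, Atp5pf had 31.6 and 29.5 CPM in PLA against 63.8, 65.0 and 62.6 in CTS (log2 fold change -1.06 ± 0.20, adjusted p = 0.00729). Atp5po, which joins the stalk to the head, fell against CTS (-0.88, adjusted p = 0.00623) and against NC (-0.57, adjusted p = 0.0375).

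The ring that turns in the membrane is built from subunit c, which Atp5mc1, Atp5mc2 and Atp5mc3 encode as the same mature protein. Atp5mc2 had 55.6 and 61.4 CPM in PLA, against 89.5, 93.7 and 89.7 in CTS and 86.7, 96.0 and 83.7 in GelMA, and fell against both (log2 fold change -0.64, adjusted p = 0.0185, and -0.60, adjusted p = 0.0322). Atp5mc3 fell against CTS (-0.71, adjusted p = 0.00981) and Atp5mc1 did not pass (-0.62, adjusted p = 0.0777). Atp5if1, the protein that binds and inhibits the ATP synthase when respiration fails, was the one complex V gene with values above 0 in all 3 PLA comparisons. It had 59.4 and 42.5 CPM in PLA, against 38.7 to 46.1 in CTS, 42.2 to 50.1 in GelMA and 28.4 to 41.2 in NC, and passed in none (log2 fold change 0.26, 0.14 and 0.53, adjusted p = 0.108 to 0.718).

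Complex IV, which reduces oxygen, held paralogs that moved in opposite directions. Ndufa4l2, a paralog of the complex IV subunit Ndufa4 that HIF-1 induces in human and mouse cells, had 17.0 and 14.9 CPM in PLA, 2.30, 2.47 and 4.95 in CTS, 6.49, 10.05 and 8.76 in GelMA, and 0.382, 1.72 and 0.842 in NC. No PLA library overlapped with another group, and GelMA lay above both CTS and NC. The log2 fold change was 4.02 ± 0.56 (adjusted p = 0.00107) for PLA against NC, 3.11 ± 0.52 (adjusted p = 0.00543) for GelMA against NC and 2.30 ± 0.52 (adjusted p = 0.0168) for PLA against CTS, while PLA against GelMA did not pass (0.92, adjusted p = 0.296). The first and second of these calls were kept in all 21 alternatives, and the third was lost without PLA replicate 1, PLA replicate 2, CTS replicate 1 or CTS replicate 2 (adjusted p = 0.102, 0.0804, 0.0732 and 0.0708).

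Ndufa4 itself fell. It had 28.4 and 28.6 CPM in PLA, against 60.2, 63.3 and 52.1 in CTS, 37.3, 43.3 and 33.8 in GelMA, and 51.7, 47.1 and 51.4 in NC. Both PLA libraries lay below all others, with a log2 fold change of -1.04 ± 0.16 (adjusted p = 0.00273) against CTS, -0.81 ± 0.16 (adjusted p = 0.00798) against NC and -0.42 (adjusted p = 0.130) against GelMA. Per gene length, Ndufa4l2 accounted for 28.6% and 25.9% of the FPKM of the pair in PLA, 2.51%, 2.55% and 6.00% in CTS, 10.5%, 13.5% and 14.8% in GelMA, and 0.493%, 2.39% and 1.09% in NC. On this scale Ndufa4 remained the more abundant of the pair in every library.

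Cox4i2, the alternative form of the regulatory subunit Cox4 and known to rise in low oxygen, followed the same order of groups. It had 15.8 and 8.90 CPM in PLA, 2.78, 4.68 and 3.70 in CTS, 5.47, 6.53 and 3.71 in GelMA, and 0.170, 1.45 and 0.459 in NC. All 3 scaffold groups lay above all NC libraries. The test was passed by PLA against NC (log2 fold change 4.16 ± 0.68, adjusted p = 0.00297) and by GelMA against NC (2.92 ± 0.63, adjusted p = 0.0176), and not by CTS against NC (2.43, adjusted p = 0.153), PLA against CTS (1.73, adjusted p = 0.0949) or PLA against GelMA (1.24, adjusted p = 0.248). Cox4i1, the common form, had 140 and 141 CPM in PLA, against 228, 204 and 210 in CTS, 172, 212 and 172 in GelMA, and 184, 167 and 181 in NC, and fell against CTS (-0.61, adjusted p = 0.0259). Cox4i2 made up 6.82% and 3.95% of the FPKM of the pair in PLA, 0.787% to 1.47% in CTS, 1.38% to 2.03% in GelMA and 0.0599% to 0.560% in NC.

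Both isoforms are also known markers of pericytes in mouse, and pericyte and smooth muscle genes differed between the groups. The summed level of 8 such genes (Rgs5, Cspg4, Pdgfrb, Mcam, Notch3, Acta2, Myh11 and Tagln) was 743 to 1132 CPM in PLA, 234 to 475 in CTS, 367 to 492 in GelMA and 178 to 542 in NC, and none of the 8 was at 0 in any library. In PLA 4 of the 8 rose against NC (50%, where 10.1% of all genes tested rose), 2 against GelMA (25%, against 5.99%) and 2 against CTS (25%, against 8.11%). In GelMA against NC the summed levels overlapped, and 5 of the 8 had a log2 fold change above 0 and 3 below 0. The part of pericytes in the PLA and GelMA values of the 2 isoforms was not tested.

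**Figure D3:**
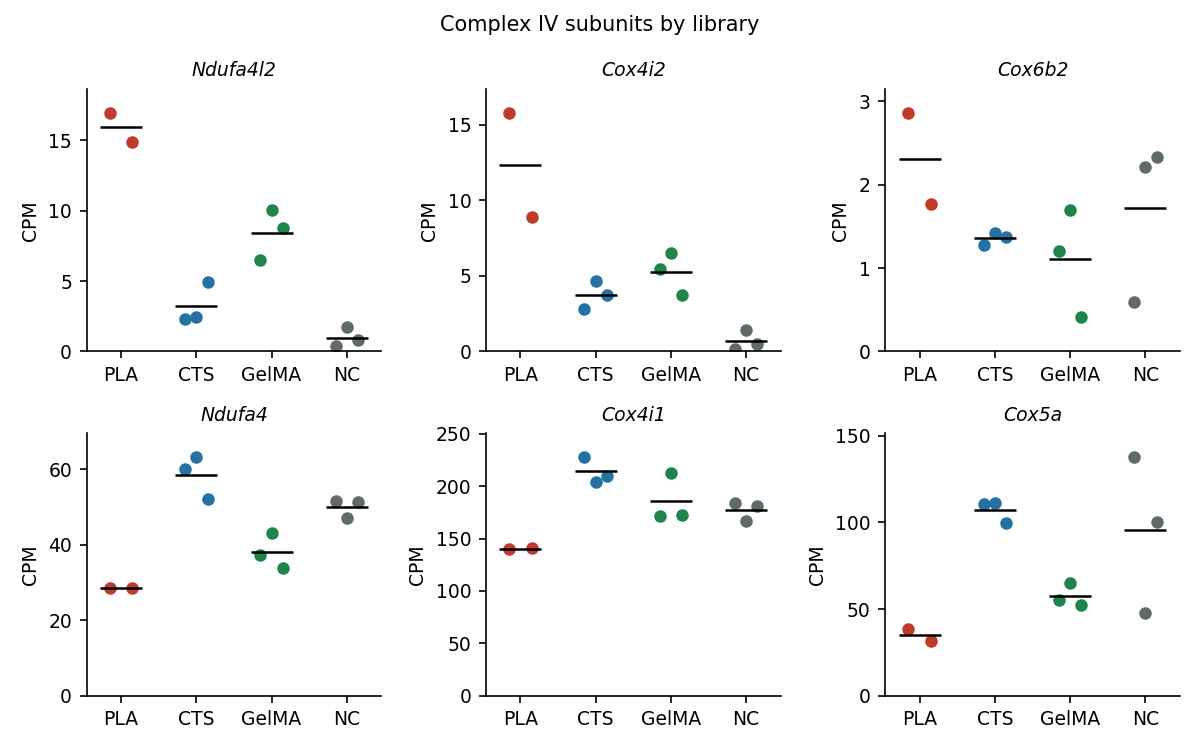
CPM of 6 complex IV genes in each library, by group, with a line at the group mean; axes start at 0 and differ between panels. The upper row shows Ndufa4l2 and Cox4i2, highest in PLA (14.9 to 17.0 and 8.90 to 15.8 CPM) and lowest in NC, beside the sparse testis-type isoform Cox6b2, and the lower row shows Ndufa4, Cox4i1 and Cox5a, lowest in PLA.

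The remaining complex IV genes split between common subunits that fell or did not pass and isoforms at very low levels. Cox5a, a matrix-side subunit, had 38.6 and 31.3 CPM in PLA, against 110, 111 and 99.9 in CTS, 55.3, 65.3 and 52.4 in GelMA, and 138, 47.9 and 100 in NC. PLA lay below all others, with a log2 fold change of -1.62 ± 0.36 (adjusted p = 0.0161) against CTS and -1.45 ± 0.36 (adjusted p = 0.0222) against NC. Cox7b, a membrane subunit, had 34.8 and 31.0 CPM in PLA, against 72.1, 72.2 and 75.7 in CTS, 51.0, 56.0 and 53.0 in GelMA, and 60.9, 39.6 and 56.7 in NC. It fell against CTS (-1.15 ± 0.19, adjusted p = 0.00360), GelMA (-0.69 ± 0.19, adjusted p = 0.0453) and NC (-0.67 ± 0.19, adjusted p = 0.0367). The common isoforms Cox6a1, Cox6b1, Cox7a2 and Cox8a, and Cox7a2l, which helps to join complexes III and IV, had log2 fold changes of -0.38 to 0.15 in the PLA comparisons and passed in none.

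Isoforms of striated muscle and testis were at the limit of detection. Cox6a2, the muscle form, had 0 counts in both PLA libraries, 4, 4 and 2 in CTS, 5, 1 and 4 in GelMA, and 10, 19 and 5 in NC. Taking a floor of 3 counts over the group, its level was at least 7.48-fold lower in PLA than in NC (adjusted p = 0.0410), a call lost in 11 of 17 alternatives. Cox8b, a muscle form, had 0 counts in PLA and at most 10 in another library, and the testis forms Cox7b2 and Cox8c had 0 to 24 and 4 to 46 counts. Cox8b, Cox7b2, Cox8c and the testis form Cox6b2 passed in none of the 6 comparisons. Cox7a1 was not analysed here. Ndufa10l1, at 0.953 and 0.860 CPM in PLA against 8.33, 7.27 and 6.03 in CTS, and the pseudogene Ndufa13-ps1 did not pass either, and their counts are uncertain because reads can be shared with Ndufa10 and Ndufa13.

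The promoters of these complex IV genes are shown for the pair that moved in opposite directions, Ndufa4l2 (chr7:65241919-65242218, plus strand) and Ndufa4 (chr4:40975510-40975809, minus strand), and for Cox4i1 (chr19:65630133-65630432, plus strand). Capitals mark the cores named above. The windows of Ndufa4l2 and Ndufa4 hold none of the 3 motifs, and that of Cox4i1 holds 1 hypoxia-inducible factor core and 3 ETS cores.
Ndufa4l2: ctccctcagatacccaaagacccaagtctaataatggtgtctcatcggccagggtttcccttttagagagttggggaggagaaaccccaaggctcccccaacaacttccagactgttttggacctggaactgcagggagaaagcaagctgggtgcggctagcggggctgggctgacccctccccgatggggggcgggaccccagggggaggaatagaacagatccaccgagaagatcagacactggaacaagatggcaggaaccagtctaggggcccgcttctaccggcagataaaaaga
Ndufa4: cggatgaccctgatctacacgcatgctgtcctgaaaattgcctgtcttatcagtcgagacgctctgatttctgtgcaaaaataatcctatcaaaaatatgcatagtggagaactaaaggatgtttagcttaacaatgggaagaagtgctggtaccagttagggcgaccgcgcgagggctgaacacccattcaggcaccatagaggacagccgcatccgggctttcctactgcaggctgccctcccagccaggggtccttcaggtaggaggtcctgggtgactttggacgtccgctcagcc
Cox4i1: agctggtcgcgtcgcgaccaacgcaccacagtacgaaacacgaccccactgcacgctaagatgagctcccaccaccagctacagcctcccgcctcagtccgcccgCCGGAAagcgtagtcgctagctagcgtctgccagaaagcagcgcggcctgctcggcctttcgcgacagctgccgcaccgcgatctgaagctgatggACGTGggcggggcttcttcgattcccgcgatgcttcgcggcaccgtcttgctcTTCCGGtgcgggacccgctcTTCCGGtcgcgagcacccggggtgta

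The mitochondrial genes, transcribed as long joint precursors from both strands of the circular genome, were among the most abundant in the table. Averaged over the groups, COX1, COX3, COX2 and ATP6 ranked 2, 3, 4 and 5 of all genes by FPKM. COX1 had 7493 and 8152 FPKM in PLA, against 15057, 13017 and 13660 in CTS, 11636, 12263 and 10425 in GelMA, and 19261, 7292 and 11410 in NC. The median of the 13 genes was 1632 FPKM in PLA, 3014 in CTS, 2796 in GelMA and 2754 in NC, and that of the 89 nuclear genes was 22.9, 51.5, 45.2 and 36.1. The order by mean FPKM was the same in all 4 groups: COX1, COX3, COX2, ATP6, CYTB, ND2, ND1, ND4, ND3, ND4L, ND5, ATP8 and ND6. ND6 was lowest, at 90.7 and 87.8 FPKM in PLA against 85.3 to 217 elsewhere. Its level is uncertain, since it lies on the opposite strand to the others and the sources used here do not say whether counting used strand. ATP8 and ATP6 overlap, as do ND4L and ND4, which can remove reads from both.

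After TMM scaling, edgeR called 0 of the 13 in any of the 6 comparisons. At an unadjusted p under 0.05 it put 3 lower in PLA against CTS, 0 in PLA against GelMA, 3 in PLA against NC, 3 in GelMA against NC, 0 in CTS against NC, and 1 higher in CTS against GelMA. DESeq2 called 3 in PLA against NC, 3 in GelMA against NC and 0 in the other 4. In PLA against CTS all 13 had values below 0, with a median log2 fold change of -0.40 and a range of -0.61 (CYTB) to -0.28 (ND2). For all 13 both PLA libraries lay below all CTS libraries, an ordering found in 27.8% of all genes tested. CYTB, the core of complex III, had 2957 and 3293 CPM in PLA, against 5221, 4520 and 4554 in CTS, 3731, 3732 and 3138 in GelMA, and 6378, 4247 and 4263 in NC (adjusted p = 0.124 against CTS and 0.0901 against NC).

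Nuclear and mitochondrial genes did not keep step in each comparison. Taken relative to the median of all genes tested, the nuclear median was -0.53 and the mitochondrial -0.36 in PLA against CTS. In PLA against GelMA they were -0.37 and 0.0048, and in PLA against NC -0.15 and -0.26. In GelMA against NC they were 0.17 and -0.27, with all 13 mitochondrial genes below 0 and 61 of 88 nuclear genes above it. The difference between the 2 genomes was tested only as the ratio of their counts given above, whose exact test did not separate the groups. With library size in place of TMM, the median of all genes tested moved to -0.51 in PLA against CTS, -0.58 against GelMA and -0.43 against NC, and the nuclear median relative to it was -0.53, -0.37 and -0.17.

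**Figure D4:**
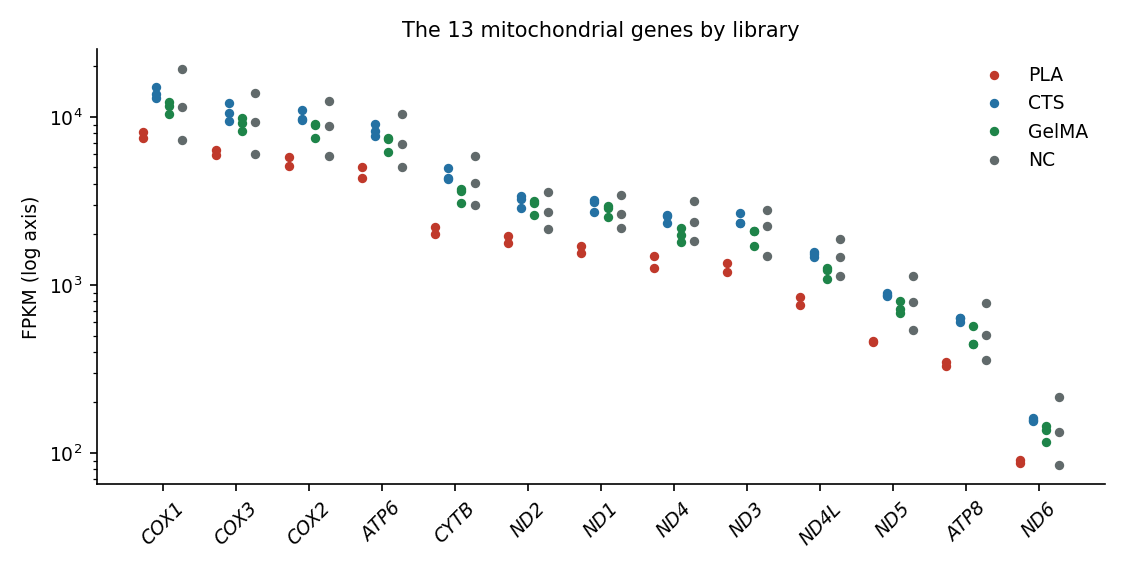
FPKM of the 13 mitochondrial genes by library (log axis), ordered by mean level, with 4 columns of points per gene for PLA, CTS, GelMA and NC. COX1 is highest and ND6 lowest in every group, the PLA points (7493 and 8152 FPKM for COX1) lie at or near the bottom of each set, and NC spreads most; FPKM carries no TMM factor.

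Between CTS, GelMA and NC few differences passed. In GelMA against NC 3 of 88 nuclear genes rose (Cox4i2, Ndufa4l2 and Ndufs7) and 0 fell, where 6.74% of all genes tested rose and 3.97% fell. At an unadjusted p under 0.05, edgeR put 10 higher and 2 lower, and DESeq2 called 5 higher and 1 lower. In CTS against NC 0 rose and 0 fell, where 0.166% and 0.0222% of all genes tested did, and edgeR put 30 higher and 0 lower at an unadjusted p under 0.05, while DESeq2 called 3 higher. The median of the nuclear genes was 0.32 against -0.02 over all genes tested, with 82 of 88 above 0. For 45 of the 88, all CTS libraries lay above all NC libraries, an ordering seen in 9.51% of all genes tested. In CTS against GelMA 0 rose and 0 fell, where 0.504% and 1.58% of all genes tested did, with 17 higher and 1 lower at an unadjusted p under 0.05 and 5 higher and 1 lower by DESeq2. For 37 of the 88, all CTS libraries lay above all GelMA libraries, against 17% of all genes tested, and the median was 0.21.

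Genes that act around the respiratory chain were taken from 7 lists. Of 11 genes linked to low-oxygen switches of respiration, 7 rose in PLA against CTS (63.6%, where 8.11% of all genes tested rose), 7 against NC (63.6%, against 10.1%) and 4 against GelMA (36.4%, against 5.99%), with median log2 fold changes of 1.29, 1.5 and 0.70. Egln3, an oxygen-sensing prolyl hydroxylase that HIF induces, had 220 and 257 CPM in PLA, against 25.02, 25.5 and 16.7 in CTS, 38.7, 42.8 and 62.0 in GelMA, and 35.01, 15.7 and 20.1 in NC (log2 fold change 3.41, 2.32 and 3.34, adjusted p = 0.000245, 0.00294 and 0.000221). Bnip3, a mediator of mitophagy, had 356 and 389 CPM in PLA, against 15.2 to 36.9 in CTS, 39.9 to 60.5 in GelMA and 6.45 to 71.3 in NC (log2 fold change 4.03, 2.91 and 3.60). In GelMA against NC 1 of the 11 rose (9.09%, near the 6.74% of all genes tested), which was Hif1a (log2 fold change 0.89, adjusted p = 0.0175).

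The tricarboxylic acid cycle, which feeds NADH and succinate to the chain, and the machinery that expresses the mitochondrial genome held genes that fell in PLA, more of them against CTS than against NC. Of 18 cycle and pyruvate dehydrogenase genes, 8 fell against CTS (44.4%, where 5.86% of all genes tested fell), 2 against GelMA (11.1%, against 3.19%) and 1 against NC (5.56%, close to the 5.5% of all genes tested), with medians of -0.56, -0.40 and -0.35. Idh2, a mitochondrial isocitrate dehydrogenase, had 30.1 and 23.1 CPM in PLA, against 58.8, 62.9 and 51.1 in CTS (log2 fold change -1.12, adjusted p = 0.00357). Of 26 genes tested for mitochondrial DNA maintenance, transcription and translation, 5 fell against CTS (19.2%, against 5.86% of all genes tested), 4 against GelMA (15.4%, against 3.19%) and 2 against NC (7.69%, near the 5.5% of all genes tested). Tfam, which packages mitochondrial DNA and starts its transcription, had 11.7 and 10.9 CPM in PLA, against 24.1, 22.5 and 23.9 in CTS, 18.8, 17.6 and 22.9 in GelMA, and 19.9, 22.7 and 22.4 in NC, with no overlap (log2 fold change -1.06, -0.81 and -0.94, adjusted p = 0.00455, 0.0229 and 0.00707). Elac2, which trims mitochondrial transfer RNAs, fell in all 3 as well (-0.85, -1.10 and -0.70).

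Of 13 regulators of mitochondrial biogenesis tested, 3 rose in PLA against CTS (23.1%, where 8.11% of all genes tested rose), 4 against GelMA (30.8%, against 5.99%) and 3 against NC (23.1%, against 10.1%). Ppard, a nuclear receptor of fatty acid oxidation, had 167 and 196 CPM in PLA, against 20.8 to 28.3 in CTS, 33.5 to 51.1 in GelMA and 17.6 to 58.4 in NC (log2 fold change 2.95, 2.12 and 2.51). Tfeb, a regulator of lysosome genes, rose in all 3 too (1.98, 1.89 and 2.32). Of 16 genes for electron carriers, metabolite transport and uncoupling, 1 rose in PLA in each of the 3 comparisons (6.25%). Of all genes tested, 8.11% rose against CTS, 5.99% against GelMA and 10.1% against NC. In this list 2 fell against CTS (12.5%, where 5.86% of all genes tested fell). Against NC 1 fell (6.25%, near the 5.5% of all genes tested). Vdac1, the outer-membrane channel, had 197 and 212 CPM in PLA against 67.3 to 90.9 in the other 9 libraries (log2 fold change 1.22, 1.56 and 1.39). Ucp3, an uncoupling protein, had 0 counts in both PLA libraries, 15, 100 and 41 in CTS, 0, 2 and 0 in GelMA, and 59, 65 and 57 in NC. It was at least 25.7-fold lower in PLA than in CTS (adjusted p = 0.0160) and at least 39.8-fold lower than in NC (adjusted p = 0.0105), at 3 counts over the PLA libraries, and it also fell in GelMA against NC (adjusted p = 0.00964) and was higher in CTS than in GelMA (adjusted p = 0.0363).

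Assembly factors and coenzyme Q synthesis changed in few genes. Of 43 assembly factors tested, 3 fell in PLA against CTS (6.98%, near the 5.86% of all genes tested) and 1 rose (2.33%, against 8.11%). Against GelMA 2 fell (4.65%, against 3.19%), and against NC 1 rose (2.33%, against 10.1%). Acad9, needed for complex I assembly, had 10.8 and 9.03 CPM in PLA against 23.1, 21.7 and 24.3 in CTS (log2 fold change -1.22, adjusted p = 0.0186), while the complex II assembly factor Sdhaf1 rose against CTS and NC (0.71 and 1.06). Sco1, a copper chaperone of complex IV, rose in GelMA against NC (0.83, adjusted p = 0.0406). Of 13 coenzyme Q genes, 2 fell in PLA against CTS (15.4%, against 5.86% of all genes tested) and 1 against GelMA (7.69%, against 3.19%), with Coq3 at 1.70 and 1.504 CPM in PLA against 4.30 to 6.88 in CTS and 5.05 to 5.55 in GelMA (log2 fold change -1.72 and -1.74).

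**Figure D5:**
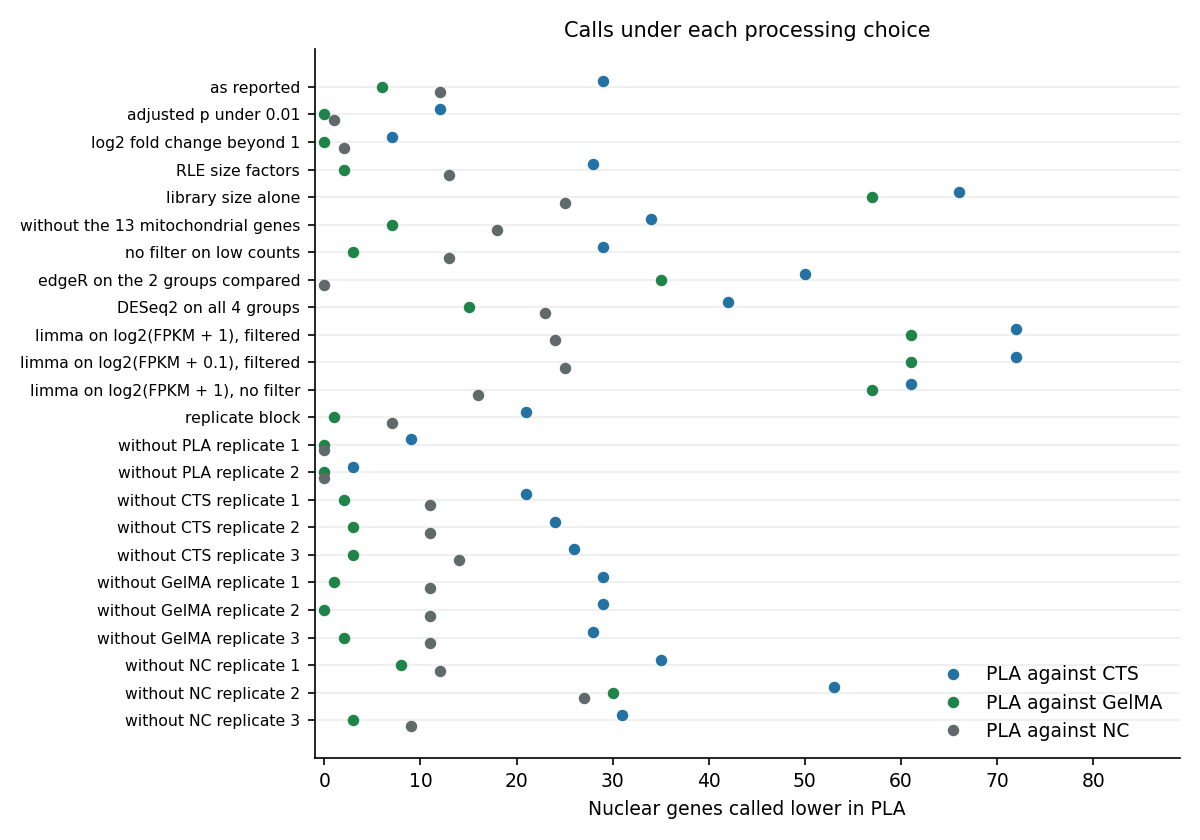
Number of the nuclear oxidative phosphorylation genes called lower in PLA against CTS, GelMA and NC under each processing choice, listed down the page with the reported setting on top. The reported counts are 29, 6 and 12, leaving out a PLA library brings them to 9 or fewer, and settings without a composition factor (library size alone, FPKM) raise them to as many as 72, 61 and 25.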

How the data were processed

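RNA was measured in 11 libraries of Cd45- cells (PLA n = 2, CTS, GelMA and NC n = 3 each). Per the submitters' processing notes, reads were trimmed with fastp, aligned with HISAT2 to mRatBN7.2 and counted with HTSeq, with DESeq for differential expression. Versions, parameters and strandedness are not given in the sources used here. The deposited counts are raw reads per gene, and the deposited FPKM values are the authors' counts scaled to gene length and library size, with no composition factor. All 11 columns of each table were mapped by the labels.

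edgeR 4.0.16 (R 4.3.3) was used on the counts. Genes passing filterByExpr (minimum count 10) were scaled by TMM and fitted in a robust quasi-likelihood model of 4 groups, with Benjamini-Hochberg adjustment over 18049 genes. A standard error is the log2 fold change divided by the square root of F. PLA has 2 libraries, so the groups share 1 estimate of the spread. Shares were tested by exact permutation (two-sided for pairs) in Python 3.11.15 with numpy 2.4.6, and figures drawn with matplotlib 3.10.9. A group with 0 counts was given a floor of 3 counts, which covers counting error only. Of these steps, only the edgeR test of PLA against CTS was run on simulated counts, with changes planted in genes of higher counts.

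Named genes were the mitochondrial genes, complex II, isoform pairs, 9 core subunits, up to 2 called genes per complex, direction and comparison (average log2 CPM of at least 3, groups without overlap), and up to 2 per related list. Genes outside the rule were chosen after their values were seen. Of the genes the rule names, 1 is not reported here. Members, lists and the rule were chosen with earlier results of these data known. Alternatives were RLE factors, library size alone, no mitochondrial genes, no filter, a log2 fold change beyond 1, an adjusted p under 0.01, edgeR on 2 groups, DESeq2 1.42.0, limma 3.58.1 on log2(FPKM + 1) or (FPKM + 0.1), filtered at FPKM 1 in 2 libraries or not, a block for replicate number, and omission of each library in turn. Whether a replicate number marks a batch could not be decided. The related genes Foxred1, Sco2, Pet117, Fastkd4 and Ucp1 were not analysed here, and Esrrb failed the filter. RefSeq promoters are from another assembly (GRCr8) than the counts and were matched by symbol.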

Additional observations from a re-analysis of the deposited data

How the results depend on the processing

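Of the called genes that the text names, only the subunit genes of the naming rule were followed under the alternatives, and none changed sign. Ndufv2 and the genes of the related lists and cell types were not followed. Values near 0 did change sign. The mitochondrial median was 0.01 in CTS against NC and -0.05 with RLE factors, and -0.04 in PLA against GelMA and 0.0069 with RLE factors. The median of all genes tested was -0.03 in PLA against CTS and 0.0064 with RLE factors, and -0.02 in CTS against NC and 0.12 with library size alone. The mean log2 ratio of mitochondrial to nuclear counts, 3.70 in PLA against 3.77 in NC, was 3.70 against 3.58 without NC replicate 1. All counts here are of nuclear genes unless named mitochondrial, and the cause of each shift was not tested. Genes called lower in PLA against CTS, GelMA and NC were 66, 57 and 25 with library size alone (mitochondrial 7, 1 and 2), 72, 61 and 25 by limma on log2(FPKM + 0.1) with a filter (mitochondrial 10, 2 and 4), 72, 61 and 24 with a pseudocount of 1 (mitochondrial 10, 2 and 4, and 2 higher against CTS), and 61, 57 and 16 with no filter (mitochondrial 7, 1 and 2). By DESeq2 they were 42, 15 and 23 (mitochondrial 3 lower against NC, and 2 and 1 nuclear genes higher against CTS and GelMA). By edgeR on the groups compared they were 50, 35 and 0 (higher 2, 4 and 1, mitochondrial 5 lower against CTS). Fewer passed at an adjusted p under 0.01, at 12, 0 and 1 (0 higher against CTS), or beyond a log2 fold change of 1, at 7, 0 and 2. RLE factors gave 2 lower against GelMA and no filter on counts gave 3 there, with 1 mitochondrial gene lower against NC.

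In GelMA against NC, genes called higher were 5 (1 lower, mitochondrial 3 lower) by DESeq2, 5 with library size alone and by unfiltered limma, 8 by either filtered limma, and 1 at an adjusted p under 0.01 or by edgeR on the groups compared, and RLE factors put 1 mitochondrial gene lower. In CTS against NC, DESeq2 called 3 higher. In CTS against GelMA, DESeq2 called 5 higher and 1 lower, edgeR on the groups compared 13 higher, 1 lower and 2 mitochondrial higher, filtered limma with a pseudocount of 1 called 1 lower, and the fit without the mitochondrial genes 1 higher. For the nuclear share of counts, the adjusted exact p was 0.00312 with FPKM summed in place of counts.

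Leaving out each library in turn gave 3 to 53 lower (0 to 2 higher, mitochondrial 0 to 3 lower) in PLA against CTS, 0 to 30 (0 to 1 higher) against GelMA and 0 to 27 (mitochondrial 0 to 5 lower) against NC. It gave 1 to 4 higher, 0 to 2 lower and 0 to 3 mitochondrial lower in GelMA against NC, 0 to 2 higher in CTS against NC, and 0 to 13 higher, 0 to 1 lower and 0 to 1 mitochondrial higher in CTS against GelMA. The highest PLA counts were without NC replicate 2, and the lowest without a PLA library or, against GelMA, also without GelMA replicate 2. The adjusted exact permutation p ranged 0.00429 to 0.0810 for the nuclear share, lowest without NC replicate 2, and 0.0283 to 0.454 for the mitochondrial share, lowest without NC replicate 1 (0.0300 without NC replicate 2).

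Same-numbered libraries correlated at -0.108 to 0.118 in their deviations from group means, with 1 of 15 over 0.1. The labels do not say whether a replicate number marks a batch, and these correlations cannot decide it. With the replicate number as a block, 21, 1 and 7 genes were lower in PLA against CTS, GelMA and NC.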
